A study of Mus musculus with 13 samples.

Results

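The kinase LKB1 and the kinase complex it switches on, AMPK, were followed through 10 genes that encode their subunits: Stk11, Strada, Stradb, Cab39 and Cab39l for the LKB1 complex, and Prkaa1, Prkaa2, Prkab1, Prkab2 and Prkag1 for AMPK. The genes were chosen for their place in these complexes, and all 10 were among the 19937 genes measured. Messenger RNA was profiled on 13 Affymetrix arrays of mouse melanocytes and melanocytic lesions, a series about BrafV600E-induced growth arrest and mTORC1. Melanocytes purified by fluorescence-activated sorting came from Cdkn2a/Braf mice at day 19 (2 arrays), which the labels place before growth arrest. A second set came from Cdkn2a/Braf mice at day 50 (2 arrays), placed after it, and another from Cdkn2a-only mice at day 19 (2 arrays). Lesions were taken as uncultured tissue. There were 2 arrays of melanoma from Cdkn2a/Braf mice, 2 of melanoma from Cdkn2a/Braf/Lkb1 mice, and 3 of melanocytic proliferations from Lkb1/Braf mice, which were pooled.

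The Lkb1/Braf proliferations are therefore the only group whose genotype does not name Cdkn2a, and the Cdkn2a-only melanocytes are the only group without Braf. The labels call the arrays of a group biological replicates. How many proliferations were pooled, the alleles, the Cre that recombined them and the markers of the sort are not given in the sources used here. Nor do the labels tell which part of Stk11 the Lkb1 allele lacks, or where the Stk11 probes lie, so the Stk11 level does not check the genotype.

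LKB1, the product of Stk11, is a tumour suppressor kinase that works as a trimer. It needs a STRAD pseudokinase (STRADα from Strada or STRADβ from Stradb) for its activation and its place in the cytoplasm, and the scaffold MO25 (MO25α from Cab39 or MO25β from Cab39l) to hold the complex together. Active LKB1 phosphorylates the catalytic α subunit of AMPK, a trimer of an α, a scaffolding β and an AMP-sensing γ subunit, and AMPK in turn restrains mTORC1 through TSC2 and Raptor. Most of this control acts on the proteins, which arrays of messenger RNA do not measure.

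Values are log2(intensity + 1), means are given with the SD between arrays, and a difference of 1 on this scale is a doubling. Differences were tested with limma over all genes, and a gene is called higher or lower where its p-value after Benjamini-Hochberg adjustment was under 0.05. Where leaving out an array leaves its group with 1, that array is assumed to vary like the arrays of the other groups, from which the p-value then takes its spread. Levels of different genes come from different probes and are not set against each other.

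The tissue groups were mixtures. The summed intensity of 10 melanocyte markers ran from 45396 to 49752 on the 4 day 19 arrays and from 24521 to 32581 at day 50. It was 3425 to 3825 in the proliferations and 567 to 1070 in both kinds of melanoma, where the defining pigment enzyme Tyr lay at 3.99 to 4.45 against 11.66 to 11.96 at day 19. At day 50, 5 of 5 endothelial and 5 of 6 fibroblast markers were called higher than at day 19, and 6 of 10 melanocyte markers lower. The summed intensity of 6 keratinocyte markers was 10131 to 14231 at day 50 and 17678 to 18858 in the proliferations, against 407 to 5442 in the other groups. The 6 skeletal muscle markers summed to 13627 and 12294 in proliferations 2 and 3 but to 1222 in proliferation 1. The part of these cell types in the results below was not tested beyond the values given. In such mixtures, fewer cells of a type and less RNA per cell cannot be told apart.

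The clearest change was between day 19 and day 50 in sorted Cdkn2a/Braf melanocytes. The genes of both STRAD pseudokinases fell, Strada 2.39-fold and Stradb 2.73-fold, and so did the genes of the γ1 subunit (Prkag1, 3.30-fold) and the β1 subunit (Prkab1, 1.80-fold). In all, 4 of the 10 genes were called lower at day 50, where 14.5% of all genes were, and 0 of the 10 were called higher, where 11.1% of all genes were. The median difference of the 10 genes was -0.55, against 0.17 for all genes. All members but Prkaa2 lay above the median level, and genes above that level also tended to fall. Their median difference was -0.26. With only these genes fitted 2714 were called lower and 695 higher, against 2884 and 2211 when all 19937 genes were fitted. Among these fewer genes the share called lower was thus larger than the 14.5% of all genes. The share called higher was smaller than the 11.1% of all genes. Without day 50 array 1 or without array 2 the differences of all 4 stayed negative, that of Prkab1 at only -0.43 without array 2.

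The Lkb1 genotype in melanoma gave no called change in any of the 10 genes. In Cdkn2a/Braf/Lkb1 against Cdkn2a/Braf melanoma, limma called 0 of 10, where 2.56% of all genes were called in either direction. An unadjusted p under 0.05 was also reached by 0 of 10. The median difference was 0.07, against -0.04 for all genes. The Braf allele at day 19 likewise gave 0 called members by limma, where 0.291% of all genes were called. With so few genes called, 0 of 10 lies near both shares. For Braf 2 members had an unadjusted p under 0.05, a threshold at which the share of all genes was not counted. Against the Lkb1/Braf proliferations, 3 of the 10 genes were called higher in Cdkn2a/Braf/Lkb1 melanoma, Prkaa1, Prkab1 and Prkag1, where 20.0% of all genes were. The other called genes were 2 lower ones, Prkaa2 and Prkab2, where 20.6% of all genes were lower. The counts of members lie near those shares, and with proliferation 1 alone 1 of the 10 was called.

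**Figure D1:**
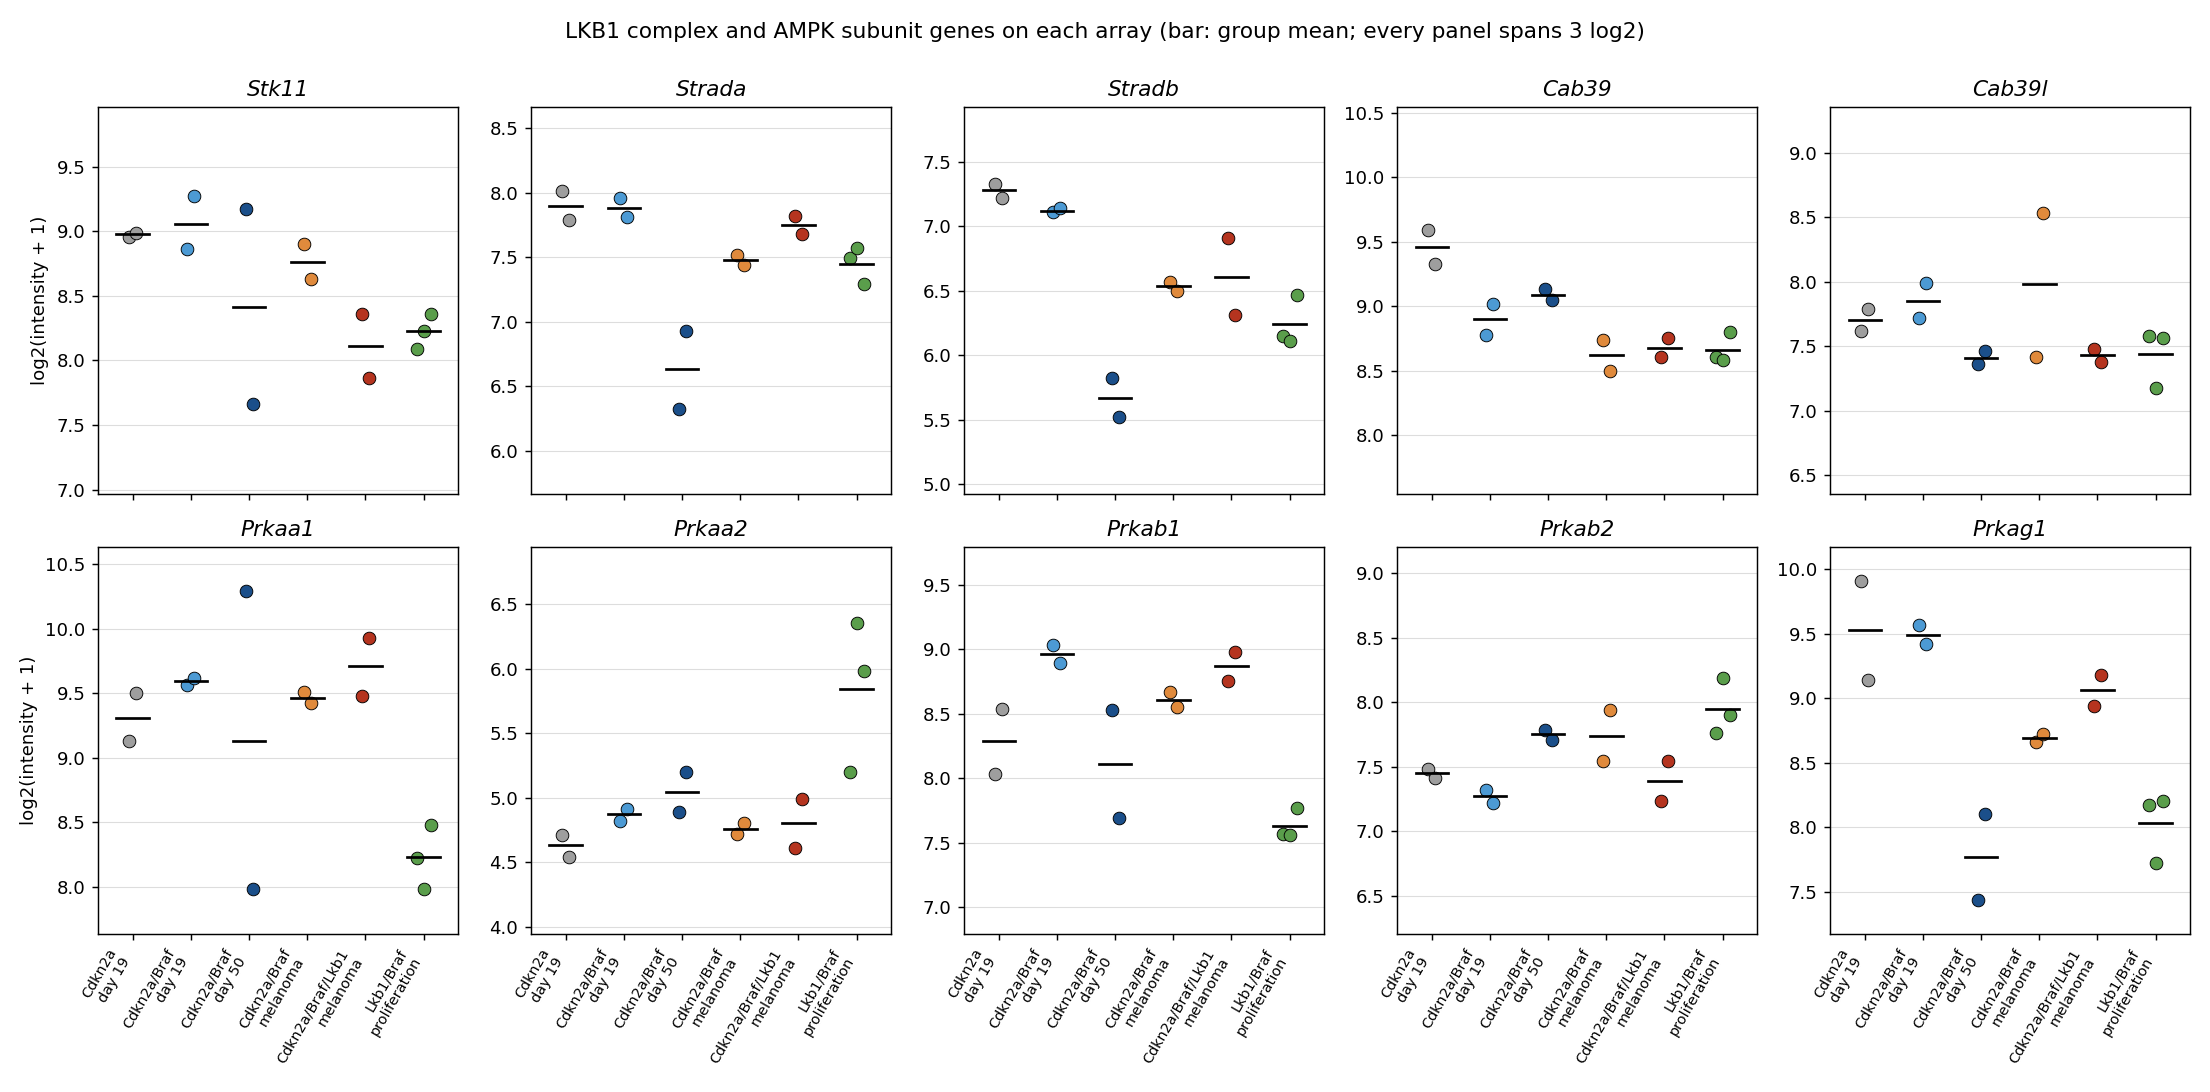
Level of each of the 10 genes, as log2(intensity + 1), on each of the 13 arrays, by group, with a bar at the group mean. Every panel spans 3 log2 units around its own centre. Strada, Stradb and Prkag1 have their lowest group mean at day 50, and the 2 day 50 arrays lie far apart for Stk11 and Prkaa1.

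**Figure D2:**
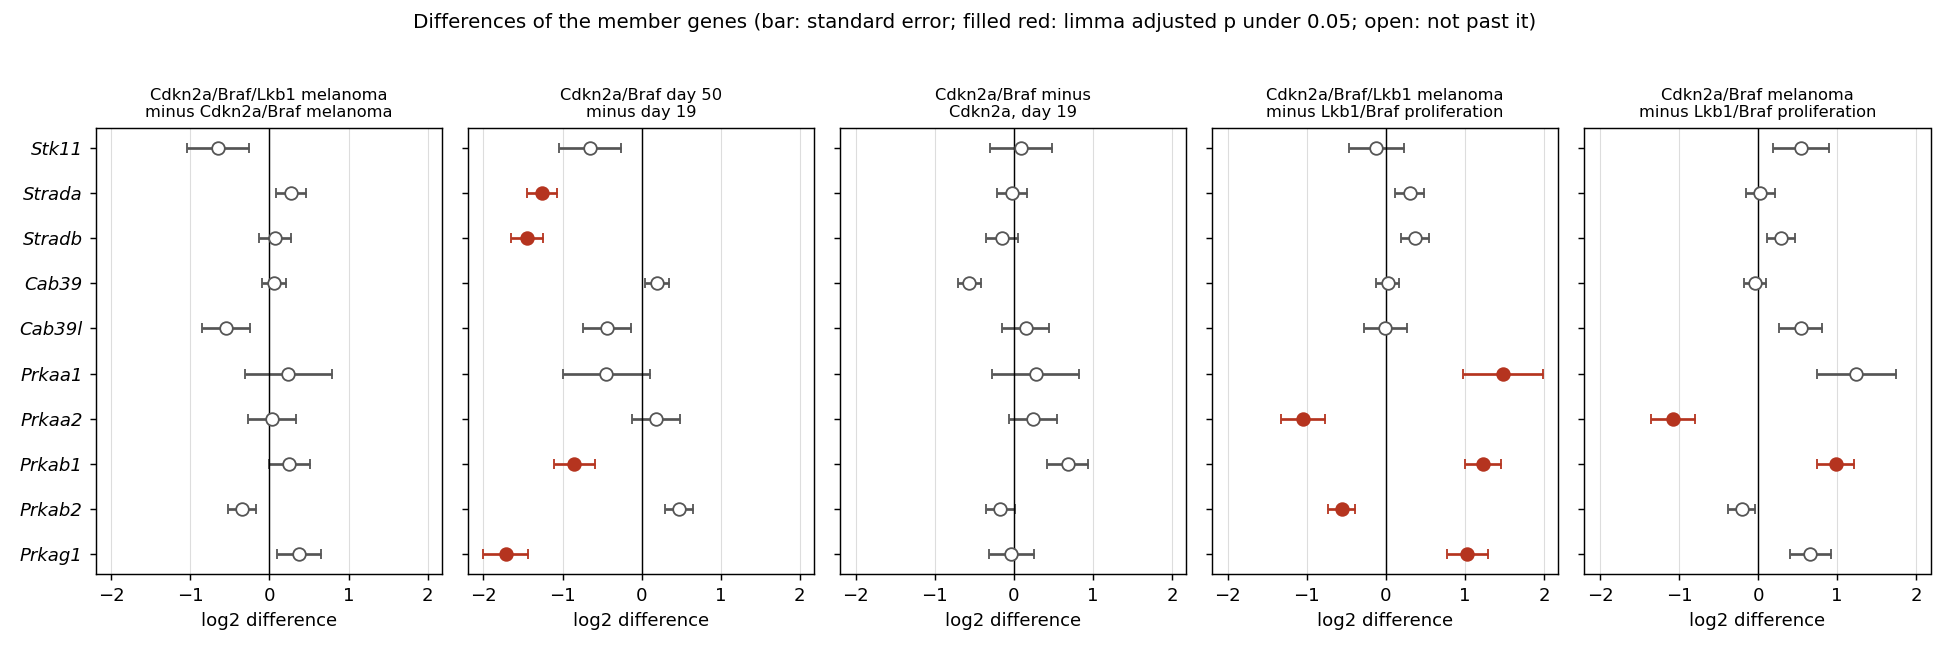
Log2 difference of each gene in 5 comparisons, with its standard error as a bar and filled red points where the adjusted p from limma was under 0.05. No point is filled for the Lkb1 genotype in melanoma or for Braf at day 19. The 4 filled points of day 50 against day 19 are all below 0.

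The promoters of the 4 genes that were lower at day 50 are shown because these genes moved in 1 direction. Each line is the 250 bases upstream of the RefSeq start (GRCm38.p6), 5′ to 3′ on the gene's own strand. In capitals is CGGAAG or its reverse complement CTTCCG, a form of ETS factor site. Other forms of that site were not searched, so a stretch without capitals can still hold them. They are Strada at chr11:106193604-106193853 (minus strand), Stradb at chr1:58973272-58973521 (plus strand), Prkab1 at chr5:116024429-116024678 (minus strand) and Prkag1 at chr15:98831509-98831758 (minus strand).
Strada: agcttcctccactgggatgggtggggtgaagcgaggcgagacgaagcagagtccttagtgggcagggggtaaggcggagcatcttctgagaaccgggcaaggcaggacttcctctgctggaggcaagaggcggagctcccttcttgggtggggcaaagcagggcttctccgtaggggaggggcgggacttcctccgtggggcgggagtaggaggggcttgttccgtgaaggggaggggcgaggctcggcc
Stradb: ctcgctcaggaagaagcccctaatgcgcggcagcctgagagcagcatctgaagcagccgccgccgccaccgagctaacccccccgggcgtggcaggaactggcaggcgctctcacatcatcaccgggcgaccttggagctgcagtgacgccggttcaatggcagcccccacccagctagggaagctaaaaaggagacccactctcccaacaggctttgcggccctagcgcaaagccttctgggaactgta
Prkab1: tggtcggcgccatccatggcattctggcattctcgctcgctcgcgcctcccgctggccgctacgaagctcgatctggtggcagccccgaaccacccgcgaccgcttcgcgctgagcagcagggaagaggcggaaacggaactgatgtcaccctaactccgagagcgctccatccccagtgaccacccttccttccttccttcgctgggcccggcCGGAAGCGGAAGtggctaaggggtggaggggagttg
Prkag1: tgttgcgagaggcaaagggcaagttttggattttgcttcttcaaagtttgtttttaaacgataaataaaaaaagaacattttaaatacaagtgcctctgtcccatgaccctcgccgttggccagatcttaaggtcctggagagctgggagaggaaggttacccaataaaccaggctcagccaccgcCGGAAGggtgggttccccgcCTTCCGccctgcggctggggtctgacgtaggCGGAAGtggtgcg
CGGAAG stood 2 times in the Prkab1 stretch and 3 times in that of Prkag1, and in 0 of the other members' stretches. Of 32851 stretches of this length, 13.6% held it. The Stradb stretch held 0 matches to any of the 5 patterns searched on both strands, as did 1 of the 2 Cab39l stretches.

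All 10 members had an entry in the promoter table, Cab39l with 2 starts, which makes 11 stretches. GGGCGG, the GC box, stood in 6 of the 11 (Strada, Cab39, Prkaa1, Prkaa2, Prkab2 and Prkag1), against 32.7% of all stretches. CCAAT stood in 3 (Stk11, Cab39l and Prkag1), against 33.8% of all. The E-box CACGTG stood in 0 of the 11, against 6.02% of all, and its variant CATGTG also in 0, against 12.3% of all. The melanocyte factor MITF can bind both. A match to GGGCGG can share bases with a match to the ETS pattern CGGAAG. The GC content of the 11 stretches ran from 46% (1 of the 2 of Cab39l) to 85.2% (Prkaa1), against a median of 52.4% for all. Besides that Cab39l stretch, only Prkag1 (51.6%) lay below the median. The shares of all stretches were not matched for GC content, and its part in the counts was not tested. The patterns were chosen with the sequences in view, and a match describes letters and not a bound site.

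Stk11, the LKB1 gene itself, measured 8.96 and 8.99 in Cdkn2a melanocytes, 8.86 and 9.27 in Cdkn2a/Braf melanocytes at day 19, and 9.17 and 7.66 at day 50. It was 8.90 and 8.63 in Cdkn2a/Braf melanoma, 8.36 and 7.86 in Cdkn2a/Braf/Lkb1 melanoma, and 8.09, 8.23 and 8.36 in the Lkb1/Braf proliferations. The 5 arrays of the genotypes that name Lkb1 all lay below the 6 arrays of the other groups except day 50, and day 50 array 2 lay below every other array. Cdkn2a/Braf/Lkb1 melanoma differed from Cdkn2a/Braf melanoma by -0.65 (SE 0.39, adjusted p = 0.396), without overlap of the arrays and short of the threshold. Strada, Prkab1 and Prkag1 were also without overlap in this comparison, and the share of all genes without overlap was not counted. When only the 7 tissue arrays were fitted the Stk11 difference was the same with an SE of 0.19 (adjusted p = 0.0984). The 2 day 50 arrays no longer entered that spread.

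The day 50 arrays disagreed on Stk11 by more than they did for 94.7% of all genes. Against day 19, Stk11 differed by -0.65 (SE 0.39, adjusted p = 0.212) with both arrays, by -1.41 (adjusted p = 0.00212) without array 1 and by 0.11 (adjusted p = 0.751) without array 2. Each of the last values rests on 1 day 50 array, whose own spread was not measured. The sign of the day 50 value therefore rested on array 2. Against the proliferations, Cdkn2a/Braf melanoma differed by 0.54 (SE 0.35, adjusted p = 0.316) and Cdkn2a/Braf/Lkb1 melanoma by -0.12 (SE 0.35, adjusted p = 0.806).

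Strada, which encodes STRADα, measured 8.01 and 7.79 in Cdkn2a melanocytes, 7.96 and 7.81 in Cdkn2a/Braf melanocytes at day 19, and 6.32 and 6.93 at day 50. The group means of the tissues lay between, with 7.52 and 7.44 in Cdkn2a/Braf melanoma, 7.82 and 7.68 in Cdkn2a/Braf/Lkb1 melanoma, and 7.49, 7.57 and 7.29 in the proliferations. Both day 50 arrays were below every other array of the series. The fall from day 19 to day 50 was -1.26 (SE 0.19, adjusted p = 0.00179), a 2.39-fold decrease. Strada was also higher than at day 50 in Cdkn2a/Braf melanoma, by 0.85 (SE 0.19, adjusted p = 0.0109), and in the proliferations, by 0.82 (SE 0.18, adjusted p = 0.0109). These comparisons share the day 50 arrays, so they are not separate evidence of a low day 50 value. With proliferation 1 alone the last difference was 0.87 (adjusted p = 0.116).

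Stradb, which encodes STRADβ, had its group means in the same order as Strada. It measured 7.33 and 7.22 in Cdkn2a melanocytes, 7.11 and 7.14 in Cdkn2a/Braf melanocytes at day 19, and 5.82 and 5.52 at day 50. Melanomas gave 6.57 and 6.50 for Cdkn2a/Braf and 6.91 and 6.31 for Cdkn2a/Braf/Lkb1, and the proliferations 6.15, 6.11 and 6.47. All 4 day 19 arrays were above all 7 tissue arrays, and both day 50 arrays were below them. The fall at day 50 was -1.45 (SE 0.20, adjusted p = 0.0010), a 2.73-fold decrease, and Cdkn2a/Braf melanoma was 0.87 higher than day 50 (SE 0.20, adjusted p = 0.0122).

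For both STRAD genes the call at day 50 was kept under all 22 alternatives, with differences from -1.57 to -0.95 for Strada and from -1.67 to -1.23 for Stradb. Neither gene was called by the Lkb1 genotype in melanoma (0.27, SE 0.19, adjusted p = 0.484 for Strada and 0.07, SE 0.20, adjusted p = 0.886 for Stradb).

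Cab39, which encodes MO25α, measured 9.59 and 9.33 in Cdkn2a melanocytes and 8.78 and 9.02 in Cdkn2a/Braf melanocytes at day 19. The difference with Braf was -0.56 (SE 0.15), with the smallest unadjusted p of the 10 genes in that comparison (0.00429), which was 0.281 after adjustment. It measured 9.13 and 9.05 at day 50, 8.74 and 8.50 in Cdkn2a/Braf melanoma, 8.61 and 8.75 in Cdkn2a/Braf/Lkb1 melanoma, and 8.61, 8.58 and 8.80 in the proliferations. The 3 tissues overlapped. Cdkn2a/Braf melanoma was called lower than day 50, with a difference of -0.47 (SE 0.15, adjusted p = 0.0415), a call kept in 10 of 21 alternatives.

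The calls of Cab39 depended on how arrays were scaled. Day 50 was 0.19 above day 19 (SE 0.15, adjusted p = 0.350), but 0.64 (adjusted p = 0.0182) after quantile normalization and 0.87 (adjusted p = 0.0035) after scaling to a common interquartile range. Cdkn2a/Braf/Lkb1 melanoma differed from the proliferations by 0.02 (SE 0.14, adjusted p = 0.931), but was called lower with those scalings, at -0.59 (adjusted p = 0.012) and -0.54 (adjusted p = 0.0148). Cab39 was the only member with a second probe set. The mean of that set was 7.33 in Cdkn2a and 6.98 in Cdkn2a/Braf melanocytes at day 19, 7.37 at day 50 and 6.65 to 6.78 in the tissues. Cdkn2a melanocytes were thus above Cdkn2a/Braf melanocytes at day 19 with either set.

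Cab39l, which encodes MO25β, varied least, with group means from 7.41 ± 0.07 (SD, n = 2) at day 50 to 7.98 ± 0.79 (SD, n = 2) in Cdkn2a/Braf melanoma. That high mean came from 1 array, at 8.53 against 7.42 for the other, a gap larger than that of 98.0% of genes in the group. Without the lower array, Cdkn2a/Braf/Lkb1 melanoma differed from Cdkn2a/Braf melanoma by -1.10 (adjusted p = 0.0209), and with both by -0.55 (SE 0.30, adjusted p = 0.345). The first value rests on 1 Cdkn2a/Braf melanoma array. No comparison called the gene with all arrays.

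Prkaa1, which encodes the α1 catalytic subunit, was low in the proliferations, at 8.22, 7.98 and 8.48. It measured 9.13 and 9.50 in Cdkn2a melanocytes, 9.56 and 9.62 in Cdkn2a/Braf melanocytes at day 19, 9.51 and 9.42 in Cdkn2a/Braf melanoma, and 9.48 and 9.93 in Cdkn2a/Braf/Lkb1 melanoma. At day 50 it was 10.29 on array 1, the highest value of the series, and 7.98 on array 2, which to 2 decimals equals the lowest. Of all genes, 98.4% had a smaller gap between these arrays.

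Prkaa1 was higher in Cdkn2a/Braf/Lkb1 melanoma than in the proliferations by 1.48 (SE 0.50, adjusted p = 0.0393), a 2.79-fold difference. The call was kept in only 7 of 22 alternatives, with values from 0.84 to 1.71. Cdkn2a/Braf melanoma was 1.24 above the proliferations (SE 0.50, adjusted p = 0.108) without overlap of arrays. When only the tissue arrays were fitted, both differences were called, at adjusted p = 0.000695 and 0.00242, each with an SE of 0.19, with a spread that the day 50 pair did not enter. Against day 19, day 50 differed by -0.45 with both arrays, by -1.61 (adjusted p = 0.00119) without array 1 and by 0.70 (adjusted p = 0.0569) without array 2, the last 2 values each resting on 1 day 50 array.

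Prkaa2, which encodes the α2 catalytic subunit that skeletal muscle uses, was dim, with a mean level above that of 18.0% of all genes. It measured 5.20, 6.35 and 5.98 in the proliferations. All other arrays lay between 4.54 and 5.20, and proliferation 1 shared the top of that range with day 50 array 2. The spread within the proliferations was larger than that of 99.5% of genes. The gene was called lower in both melanomas than in the proliferations, with a difference of -1.05 (SE 0.28, adjusted p = 0.0142) with Lkb1 in the genotype and -1.08 (SE 0.28, adjusted p = 0.0207) without it. The calls were kept in 17 and 14 of 21 alternatives. Both were lost after quantile normalization (-0.74, adjusted p = 0.0873 and -0.90, adjusted p = 0.0569). Interquartile range scaling also lost both (-0.56, adjusted p = 0.20 and -0.81, adjusted p = 0.0928).

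The 2 arrays with the highest Prkaa2 levels also had the highest muscle sums, but the order did not hold over all arrays. Proliferation 2 had the highest Prkaa2 level and the highest muscle sum (13627), and proliferation 3 was the next on both (12294). Proliferation 1 was the lowest of the 3 on both. Its muscle sum of 1222 was above those of all 6 sorted arrays (544 to 737), and its Prkaa2 level of 5.20 equalled the highest of them. With proliferation 1 alone, the differences were -0.40 (adjusted p = 0.215) and -0.44 (adjusted p = 0.264). Both calls were lost there, with 1 array assumed to vary like the other groups. Array 2 of Cdkn2a/Braf/Lkb1 melanoma, with a muscle sum of 4056 against 671 on array 1, was also the higher of its pair, at 4.99 against 4.61. In Cdkn2a/Braf melanoma the array with the higher muscle sum, 2048 against 527, was the lower in Prkaa2, at 4.72 against 4.80. The melanoma arrays with sums of 4056 and 2048 had larger sums than proliferation 1 and lower Prkaa2 levels. Day 50 array 2, with a sum of 693, had the same Prkaa2 level as proliferation 1, 5.20.

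**Figure D3:**
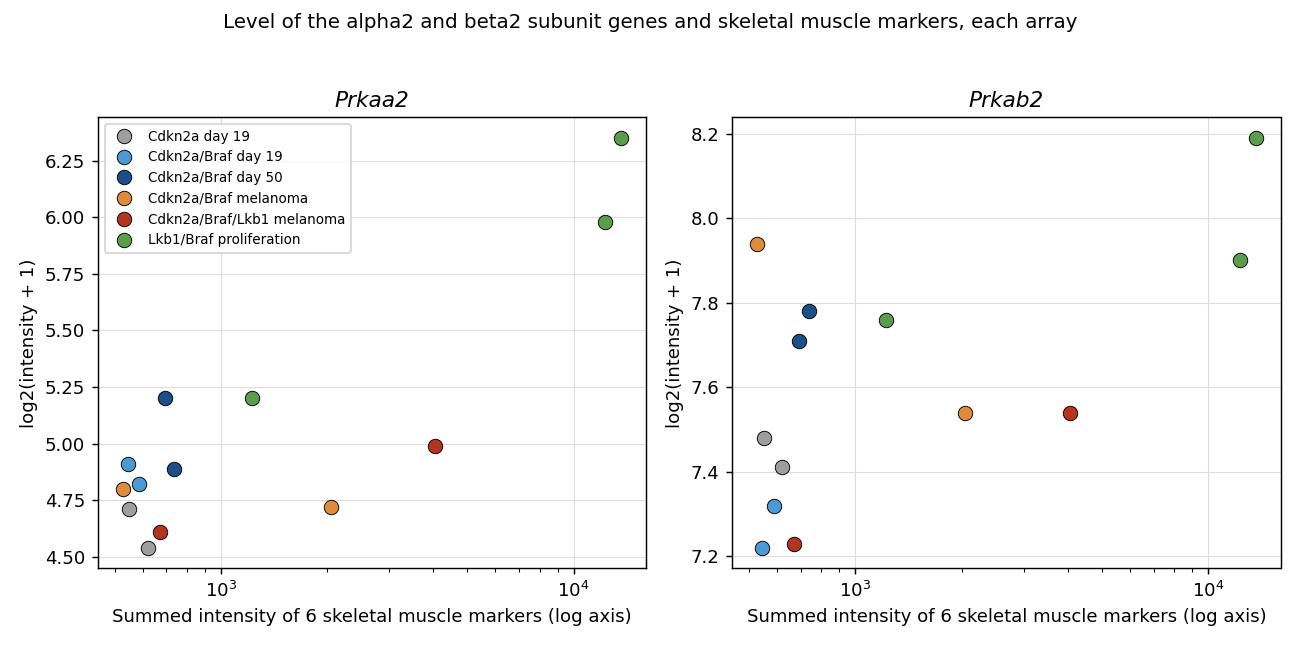
Levels of Prkaa2 and Prkab2, as log2(intensity + 1), against the summed linear intensity of 6 skeletal muscle markers on a log axis, 1 point per array, coloured by group. The 2 proliferation arrays at the right, with sums of 13627 and 12294, have the highest Prkaa2 levels, 6.35 and 5.98. Prkab2 reached 7.94 on a Cdkn2a/Braf melanoma array whose muscle sum was 527.

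Prkab1, which encodes the β1 scaffold subunit, was lowest in the proliferations, at 7.57, 7.56 and 7.77. It measured 8.67 and 8.55 in Cdkn2a/Braf melanoma and 8.75 and 8.98 in Cdkn2a/Braf/Lkb1 melanoma, all above every proliferation. Against the proliferations it was higher by 0.98 (SE 0.23, adjusted p = 0.0148) and by 1.23 (SE 0.23, adjusted p = 0.00293), or 1.97-fold and 2.35-fold. The second call was kept under all 22 alternatives, from 0.78 to 1.35, and with proliferation 1 alone it was 1.29 (adjusted p = 0.0421). The first was 1.04 (adjusted p = 0.123) with proliferation 1 alone.

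In the sorted cells Prkab1 was 8.03 and 8.54 in Cdkn2a melanocytes and 9.03 and 8.89 in Cdkn2a/Braf melanocytes at day 19. The difference of 0.68 (SE 0.26) had an unadjusted p of 0.0243 and an adjusted p of 0.551. At day 50 it was 8.53 and 7.69, a fall of -0.85 (SE 0.26, adjusted p = 0.0371). That call was kept in 11 of 22 alternatives. Without day 50 array 2 the difference was -0.43 (adjusted p = 0.155), and after quantile normalization it was -0.36 (adjusted p = 0.377).

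Prkab2, the β2 subunit gene, had its highest group mean in the proliferations. It measured 7.76, 8.19 and 7.90 in the proliferations, 7.54 and 7.94 in Cdkn2a/Braf melanoma, and 7.23 and 7.54 in Cdkn2a/Braf/Lkb1 melanoma. The last group was called lower than the proliferations, with a difference of -0.56 (SE 0.17, adjusted p = 0.0233) and no overlap, and of -0.37 (adjusted p = 0.250) with proliferation 1 alone. Cdkn2a/Braf melanoma overlapped with the proliferations and differed by -0.21 (SE 0.17, adjusted p = 0.413). In sorted cells it was 7.48 and 7.41 in Cdkn2a, 7.32 and 7.22 in Cdkn2a/Braf at day 19, and 7.78 and 7.71 at day 50. Day 50 was above day 19 by 0.47 (SE 0.18, adjusted p = 0.0777). This was called after quantile normalization (0.77, adjusted p = 0.0276) and after interquartile range scaling (0.73, adjusted p = 0.0182).

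Prkag1, which encodes the γ1 subunit that senses AMP, had the widest span of group means of the 10 genes, 1.75. It measured 9.91 and 9.14 in Cdkn2a melanocytes, 9.57 and 9.42 in Cdkn2a/Braf melanocytes at day 19, and 7.44 and 8.10 at day 50. It was 8.66 and 8.72 in Cdkn2a/Braf melanoma, 8.94 and 9.18 in Cdkn2a/Braf/Lkb1 melanoma, and 8.17, 7.72 and 8.20 in the proliferations. The day 50 and proliferation arrays overlapped and lay below all others.

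The fall at day 50 was -1.72 (SE 0.28, adjusted p = 0.0024), a 3.30-fold decrease, kept under all 22 alternatives (-2.06 to -1.23). Cdkn2a/Braf melanoma was 0.92 above day 50 (SE 0.28, adjusted p = 0.0333), called in 14 of 21 alternatives. This call was lost without day 50 array 1 (0.59, adjusted p = 0.156), after quantile normalization (0.52, adjusted p = 0.230) and with the replicate number as a block (adjusted p = 0.0596). Cdkn2a/Braf/Lkb1 melanoma was 1.03 above the proliferations (SE 0.26, adjusted p = 0.0106), called in 18 of 22 alternatives and 0.90 (adjusted p = 0.116) with proliferation 1 alone. Cdkn2a/Braf melanoma was 0.66 above them (SE 0.26, adjusted p = 0.0953).

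**Figure D4:**
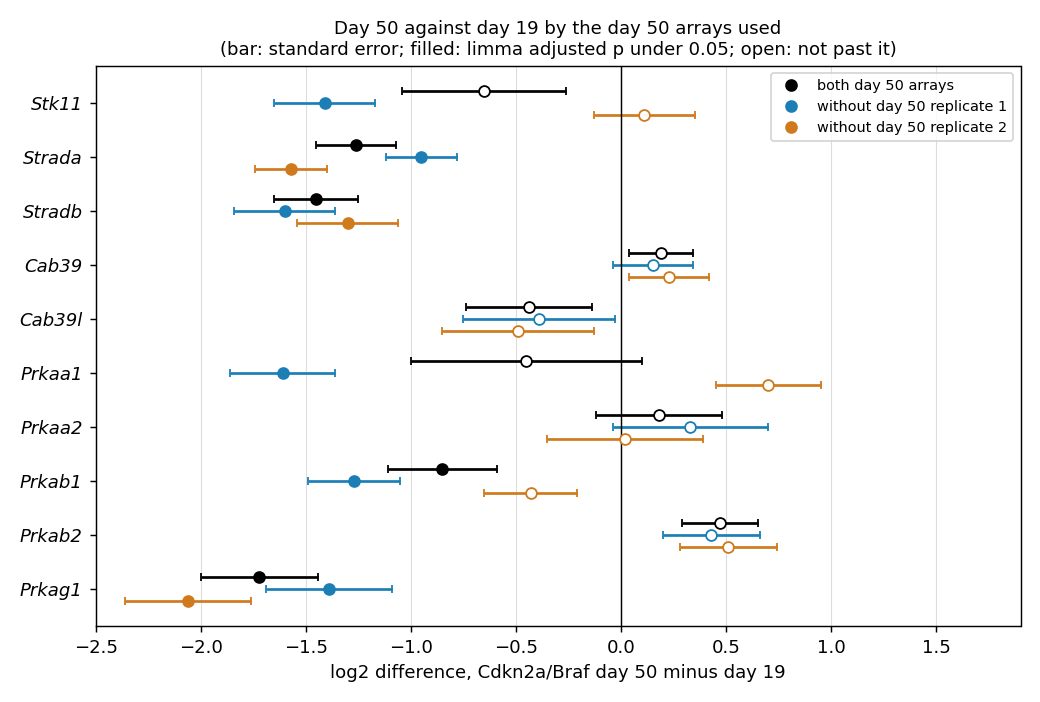
Log2 difference between day 50 and day 19 in Cdkn2a/Braf melanocytes for each gene, with both day 50 arrays (black), without array 1 (blue) and without array 2 (orange). Bars are standard errors and filled points have an adjusted p under 0.05. Strada, Stradb and Prkag1 were called in all 3 fits, and Prkaa1 turned sign, from -1.61 to 0.70.

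Beside the 4 falls at day 50 stand the higher markers of other cell types on the same arrays. The day 50 keratinocyte sums were 14231 and 10131 and the endothelial sums 2279 and 781, higher on array 1 for both, while the melanocyte sum was lower on array 1 (24521 against 32581). Strada and Prkag1 were lower on array 1, and Stradb, Prkab1, Stk11 and Prkaa1 were lower on array 2. Over all genes, the difference between the 2 day 50 arrays had an SD of 0.703, against 0.271 to 0.404 for pairs of arrays in the other groups. The fit shares 1 spread per gene over all groups, which can make SEs and p-values at day 50 too small. With only the sorted arrays fitted, and so fewer arrays, 349 genes were called higher and 1153 lower, against 2211 and 2884. Strada, Stradb and Prkag1 stayed called there, and Prkab1 did not (adjusted p from limma 0.134).

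Between Cdkn2a/Braf/Lkb1 melanoma and the proliferations, the paralogous α and β subunit genes were called in opposite directions, Prkaa1 and Prkab1 higher and Prkaa2 and Prkab2 lower in the melanoma. Of these, Prkaa1 was called in 7 of 22 alternatives and Prkab1 in all 22. In Cdkn2a/Braf melanoma neither Prkaa1 nor Prkab2 was called. In Cdkn2a/Braf melanoma against the proliferations 1 of 10 genes was called higher (12.6% of all genes) and 1 lower (8.88% of all genes), which were Prkab1 and Prkaa2. The median over the 10 genes was 0.41, against -0.02 for all genes. In Cdkn2a/Braf/Lkb1 melanoma against the proliferations it was 0.16, against -0.04. For genes above the median level, where all members but Prkaa2 lay, the medians were higher. They were 0.25 for Cdkn2a/Braf melanoma and 0.36 for Cdkn2a/Braf/Lkb1 melanoma, the latter above that of the members. Besides the muscle sums, 5 of 5 adipocyte markers were called lower in each melanoma than in the proliferations. So were 5 of 6 keratinocyte markers in Cdkn2a/Braf melanoma and 6 of 6 in Cdkn2a/Braf/Lkb1 melanoma, and 7 and 8 of 10 melanocyte markers. Other markers were called higher in Cdkn2a/Braf/Lkb1 melanoma, 4 of 6 fibroblast (1 was lower), 3 of 5 endothelial and 2 of 5 macrophage markers. In Cdkn2a/Braf melanoma 2 of 5 endothelial and 1 of 6 fibroblast markers were higher, and 1 of 5 macrophage markers was lower. With proliferation 1 alone, 1 of 10 members was called in Cdkn2a/Braf/Lkb1 melanoma and 0 in Cdkn2a/Braf melanoma.

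Within an array, the difference between Prkaa1 and Prkaa2, taken relative to its mean over the 13 arrays, was -1.09, -2.48 and -1.60 in the proliferations. At day 50 it was 1.29 on array 1 and -1.32 on array 2, so array 2 lay within the range of the proliferations. Its group means were 0.58 to 0.80 in the other 4 groups. For Prkab1 against Prkab2 it was -0.92, -1.36 and -0.87 in the proliferations, 0.01 and -0.75 at day 50, and 0.10 to 0.95 as group means elsewhere. Day 50 array 2 was thus low on both pairs. Proliferation 1, with the lowest muscle sum of its group, had a negative value for both pairs. For both pairs all 3 proliferations lay below all 4 melanomas. The same measure for Strada against Stradb had group means from -0.34 to 0.25 only, and for Cab39 against Cab39l from -0.62 to 0.50. These values are a description, with no test.

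**Figure D5:**
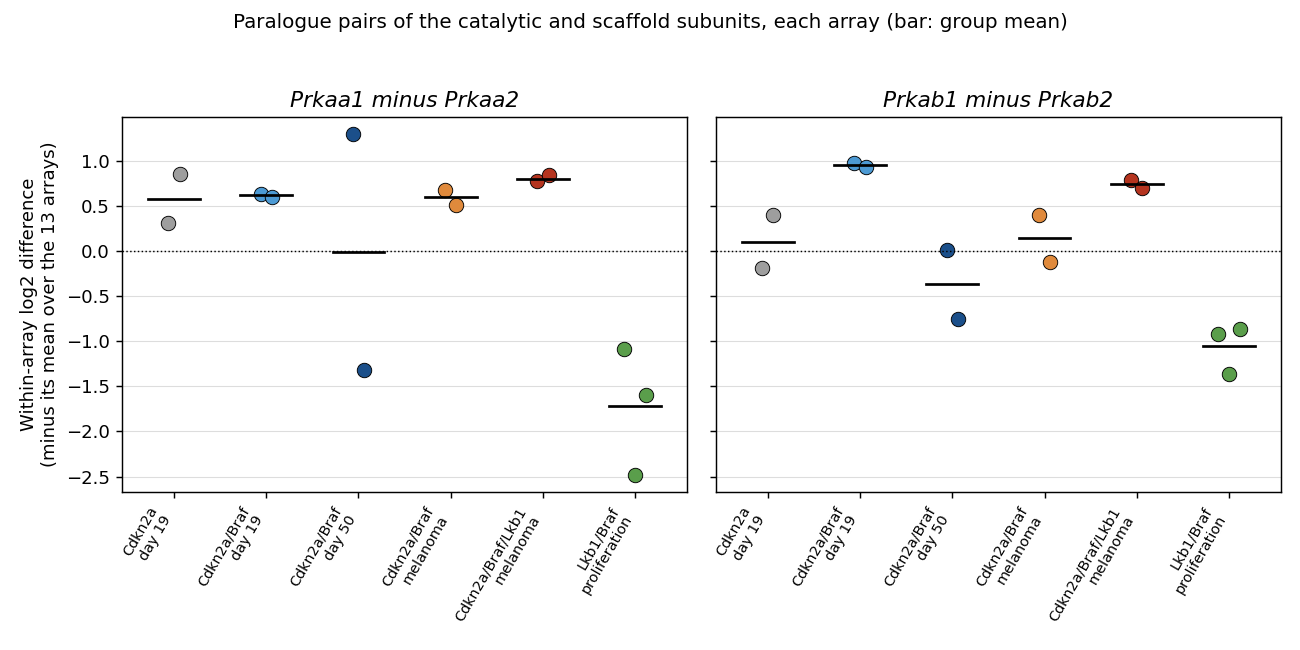
Within-array log2 difference between Prkaa1 and Prkaa2 (left) and between Prkab1 and Prkab2 (right), relative to its mean over the 13 arrays, for each array by group, with a bar at the group mean. The 3 proliferations lie at -1.09 to -2.48 on the left and at -0.87 to -1.36 on the right, below all 4 melanoma arrays in both panels. Day 50 array 2, at -1.32 and -0.75, lies within or near their range.

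Melanoma was also compared with the sorted cells. Against day 50, Cdkn2a/Braf melanoma had 3 members called higher, Strada, Stradb and Prkag1 (15.5% of all genes), and 1 lower, Cab39 (16.9% of all genes). Against day 19 limma called 0 of 10, where 12.6% of all genes were called in either direction. At an unadjusted p under 0.05, for which the share of all genes was not counted, there were 3. Those 3 were Prkag1 at -0.80 (SE 0.28, adjusted p = 0.102), Stradb at -0.59 (SE 0.20, adjusted p = 0.0966) and Prkab2 at 0.47 (SE 0.18, adjusted p = 0.147). In the proliferations against day 50, 1 gene was called higher, Strada (9.11% of all genes). Sorted and tissue arrays differ in material as well as in genotype and stage, which cannot be told apart here.

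The pathway around the 10 genes was read from lists of 46 other genes, of which 44 were measured: the γ subunits Prkag2 and Prkag3, other kinases of AMPK, the AMPK-related kinases that LKB1 activates, AMPK substrates, AMPK regulators, and TSC and mTORC1 subunits. At day 50 against day 19, 3 of the 44 were called higher (11.1% of all genes) and 13 lower (14.5% of all genes), with a median of -0.25. Of the 44, 33 lay above the median level, where the median of all genes was -0.26. Of 15 AMPK substrates 6 were lower and 1 higher. Among the lower, Acaca, the acetyl-CoA carboxylase of fatty acid synthesis, fell by 1.77 on the log2 scale (SE 0.22, adjusted p = 0.000496), while Acacb, its mitochondrial paralogue, rose by 0.46 (SE 0.13, adjusted p = 0.032). The Acacb call was kept in 12 of 21 alternatives and lost without either day 50 array (adjusted p = 0.0539 and 0.0762). Tbc1d1, a regulator of glucose transporter traffic, fell by 1.34 (SE 0.21, adjusted p = 0.00208).

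Of 9 TSC and mTORC1 subunits 5 were lower at day 50 and 1 higher. Tsc2 and Rptor, among the lower, are also on the list of AMPK substrates and were counted there too. Tbc1d7, a subunit of the TSC complex, fell by 1.81 (SE 0.33, adjusted p = 0.00438), and Rheb, the GTPase that TSC restrains and that activates mTORC1, fell by 1.24 (SE 0.20, adjusted p = 0.00235). Mtor fell by 0.78 (SE 0.15, adjusted p = 0.00514) and Rptor, which encodes Raptor, by 0.95 (SE 0.16, adjusted p = 0.00325). Akt1s1, which encodes the mTORC1 inhibitor PRAS40, rose by 0.61 (SE 0.12, adjusted p = 0.00712). Tsc2, the TSC subunit that AMPK phosphorylates, was the other lower gene, at -0.53 (SE 0.17, adjusted p = 0.0426). Its call was kept in only 8 of 22 alternatives (-0.65 to -0.20) and was lost without day 50 array 1 (-0.43, adjusted p = 0.143) and after quantile normalization (-0.20, adjusted p = 0.516). Those of Mtor, Rheb and Rptor were each kept in 21 of 22, that of Akt1s1 in 20 of 22, and that of Tbc1d7 in 20 of 21.

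Of 6 AMPK regulators 2 were lower, Fnip2, a partner of folliculin, at -1.66 (SE 0.19, adjusted p = 0.000365), and the sestrin gene Sesn3 at -1.37 (SE 0.23, adjusted p = 0.00306). Of 12 AMPK-related kinases activated by LKB1, 2 were lower (Sik2 at -1.10 and Mark3 at -0.98) and 1 higher (Brsk2 at 0.76), counts near the shares of all genes. Sik2 was called in 21 of 22 alternatives and Mark3 in 15 of 22, with -0.47 (adjusted p = 0.055) without day 50 array 2. Brsk2 was called in only 2 of 21, with 0.31 (adjusted p = 0.243) without day 50 array 1 and 1.21 (adjusted p = 0.000792) without array 2. Neither Prkag2 nor Prkag3 was called, nor Camkk2 or Map3k7, the measured other kinases of AMPK. After quantile normalization 2 of the 44 were higher and 8 lower. Without day 50 array 1 the counts were 2 and 13, and without array 2 they were 3 and 17.

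For the Lkb1 genotype in melanoma, 1 of the 44 pathway genes was called, the muscle glycogen synthase gene Gys1. It measured 7.34 and 7.16 in Cdkn2a/Braf/Lkb1 melanoma and 6.67 and 6.35 in Cdkn2a/Braf melanoma, a rise of 0.74 (SE 0.16, adjusted p = 0.0378). The call was kept in 9 of 22 alternatives, always with the same sign (0.57 to 0.90). The Braf genotype at day 19 called 0 of the 44 by limma. At an unadjusted p under 0.05, for which the share of all genes was not counted, there were 5.

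Between Cdkn2a/Braf/Lkb1 melanoma and the proliferations 6 of the 44 were higher, where 20.0% of all genes were, and 6 lower, where 20.6% were. Both are smaller shares than those of all genes, which for the lower genes depended on the scaling. After quantile normalization the counts were 3 and 13, where 2203 and 2443 of all genes were called. After interquartile range scaling they were 4 and 10, where 5111 and 2688 of all genes were called. With either of these scalings the share of lower genes was larger among the 44 than among all genes. Rheb was 1.18 higher (SE 0.18, adjusted p = 0.00105) and the salt-inducible kinase gene Sik3 0.87 higher (SE 0.15, adjusted p = 0.00172). Prkag3, the γ subunit of skeletal muscle, was lower (-0.83, SE 0.15, adjusted p = 0.00224), as were Acacb (-0.93, SE 0.12, adjusted p = 0.000422), and Lipe, the hormone-sensitive lipase of adipocytes (-0.82, SE 0.16, adjusted p = 0.00328). With proliferation 1 alone, 4 were higher and 2 lower. In Cdkn2a/Braf melanoma against day 19, 0 of the 44 were higher and 7 lower (5.46% of all genes), among them Acaca at -1.25 (SE 0.22, adjusted p = 0.00369) and Fnip2 at -1.65 (SE 0.19, adjusted p = 0.000295).

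For the 6 members whose group means spanned at least 1 on the log2 scale, the non-member genes of most similar pattern were found by the root mean square difference of centred means over the 6 groups. For Strada they were Pmpca (0.039), Usp16 (0.063) and Cfap298 (0.072), and for Stradb they were Otulin (0.076), Mff (0.079) and Ints9 (0.094). Of these Mff encodes a mitochondrial fission factor and is itself on the list of AMPK substrates. For Prkag1 they were Emc3 (0.075), Vmp1 (0.084) and Wwc2 (0.088), and for Prkab1 they were AI837181 (0.098), Il10rb (0.107) and Rbbp6 (0.112). Prkaa1 was most like Cers2 (0.086), Itgb1 (0.095) and Vcl (0.105). The dim Prkaa2 was most like Tnfaip8l2 (0.063), Lce1j (0.067) and Krtap4-16 (0.083).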

How the data were processed

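Total RNA was extracted with a Qiagen kit and amplified and labelled with NuGEN reagents, per the labels' protocols. The deposited intensity values were made by the authors with RMA, per the submitters' processing notes, and run on a linear scale from 3.35 to 17698. RMA version, array type and genome build are not given in the sources used here. Of 34760 probe sets, 21640 name 1 gene, which gave 19937 genes. For genes with several sets the one of highest mean was used. The precision is limited by the 2 or 3 arrays per group.

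From these, log2(intensity + 1) entered a limma model (limma 3.58.1, R 4.3.3) of 6 group means on 13 arrays (7 residual and 3.08 prior degrees of freedom), in 8 comparisons. Tests were two-sided, adjusted over all genes. Alternatives were 3 other scalings, the mean of probe sets, a filter at the median level, a pseudocount of 16, the replicate number as a block, arrays of the same material, and leaving out each array. Proliferation 1 alone was added after its markers were seen. The fit was tested on simulated data. All members, list genes when called, and 3 like genes per wide-ranging member are named. Members and lists were chosen with earlier results of these data known. Promoters are from RefSeq. Python 3.11.15 made the tables and plots.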

Additional observations from a re-analysis of the deposited data

How the results depend on the processing

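The calls of Strada, Stradb and Prkag1 at day 50 against day 19, and of Prkab1 in Cdkn2a/Braf/Lkb1 melanoma against the proliferations, kept sign and threshold under all 22 alternatives run. For day 50 against day 19, quantile normalization and interquartile range scaling called 2 members higher (Cab39 and Prkab2) and 3 lower, in place of 0 and 4. Leaving out 1 array gave 3 to 6 members. For the Lkb1 genotype in melanoma it gave 0 to 1.

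For Cdkn2a/Braf/Lkb1 melanoma against the proliferations (5 members), quantile normalization and interquartile range scaling each gave 3, proliferation 1 alone 1, and leaving out 1 array 2 to 5. Cab39 turned there from 0.02 to -0.59 and -0.54 with those scalings. For Cdkn2a/Braf melanoma against the proliferations (2 members), quantile normalization gave 1, interquartile range scaling 0, genes above the median level 1, arrays of the same material 4, proliferation 1 alone 0, and leaving out 1 array 0 to 5. For that melanoma against day 50 (4 members), proliferation 1 alone gave 2 and leaving out 1 array 1 to 5. Prkaa1 there ran from -0.82, without day 50 array 2, to 1.48. Against day 19 (0 members), median centring gave 1 and leaving out 1 array 0 to 1. For the proliferations against day 50 (1 member), median centring gave 2, quantile normalization 3, interquartile range scaling 3, the mean of probe sets 2, a pseudocount of 16 2, proliferation 1 alone 0, and leaving out 1 array 1 to 4. The cause was not tested, beyond the smaller number of arrays when some are left out and the spread that the day 50 pair adds to Stk11 and Prkaa1.

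Replicate numbers did not pair the arrays: of 30 correlations of deviations between same-numbered arrays 0 were above 0.1 (-0.117 to 0.093). With the replicate block, Cdkn2a/Braf melanoma against day 50 called 2 members in place of 4, and day 50 against day 19 called 3, without Prkab1 (adjusted p = 0.0671).

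The scalings moved the median of all genes at day 50 against day 19 from 0.17 to between -0.05 and 0.07. Signal over background was not measured, so how far it limits dim genes such as Prkaa2 was not tested.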
